A study of Danio rerio with 18 samples.

Results

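In wild-type WIK zebrafish, 22 of 25535 measured genes were almost without reads at 24 hours post-fertilisation (hpf) and well expressed at 72 hpf. A gene was a member when each of the 3 WIK libraries at 24 hpf held under 0.3 CPM (reads of a gene scaled to library size) and the 3 WIK libraries at 72 hpf averaged at least 30 CPM. In all, 30 genes met both limits. By symbol, 4 crystallin genes of the lens and 4 opsin genes were left out, and 0 of the 30 were sarcomere genes. Genes known only by a clone name could not be screened in this way. Of the 22 members, 9 are genes of photoreceptors, 2 of skeletal muscle, 1 of cartilage and bone and 1 of myelin, and 9 were placed in no tissue, most of them known only by a clone name.

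Each library held poly(A) RNA from a pool of 20 to 25 whole embryos, with 3 libraries in each of 6 groups. At 24 hpf the groups were embryos of the her3 -/- line named her3_38aa (called the knockout below; her3 encodes a Hairy-related transcriptional repressor), WIK embryos that received a her3 morpholino (MO, an antisense oligomer that binds a transcript and keeps it from being translated or spliced) between the 1-cell and 4-cell stages, WIK embryos that received a mismatch morpholino (mm) in the same way, and uninjected WIK embryos. At 72 hpf they were the knockout and WIK. The submitters call the replicates biological. What the knockout allele does to the transcript is not given in the sources used here.

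Between these ages a zebrafish embryo hatches, starts to swim and begins to see. Photoreceptors build the outer segment, a stack of membrane discs or folds that carries the light-sensing opsins. There light-activated opsin signals through the G protein transducin, kinases and arrestins shut the response off, and a ribbon synapse passes the signal on. In the same period muscle fibres grow, the first bones mineralise and the first axons are wrapped in myelin.

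The 18 libraries held 14214136 to 23135995 reads each, and the 6 libraries at 72 hpf held 18123196 to 19932182. Within 4 of the groups, 1 library stood apart from the other two when replicate counts were compared by chi-square over genes. Divided by its degrees of freedom, in the knockout at 72 hpf the chi-square of pairs with replicate 3 was 11.5 and 6.69, against 4.04 for the remaining pair, and the WIK pairs at 72 hpf had 4.33 to 4.85. The others were replicate 1 of the her3 morpholino, replicate 3 of the mismatch morpholino and replicate 1 of WIK at 24 hpf. The targeted gene did not have a lower transcript level under the knockout label: her3 (ENSDARG00000076857) stood at 22.1 ± 0.0623 CPM there, against 10.03 ± 0.916 CPM in WIK at 24 hpf, and at 2.15 ± 0.313 CPM, against 1.35 ± 0.114 CPM in WIK at 72 hpf (SD, n = 3). At 24 hpf it also stood at 35.9 ± 5.15 CPM with the her3 morpholino, against 7.87 ± 0.214 CPM with the mismatch morpholino (SD, n = 3). Protein was not measured, and every direction given here follows the labels.

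In the WIK libraries that chose them, the members were near the limit of detection at 24 hpf. A value under 0.3 CPM meant at most 3 reads in WIK replicate 1 and at most 5 in replicates 2 and 3. None of the 22 had more than 9 reads over the 3 libraries together, and 3 had no read in any of them: PRPH2 (ENSDARG00000014840), si:ch211-255g12.6 and si:dkey-57a22.15. At 72 hpf the WIK means ran from 31.5 CPM for ROM1 to 588 CPM for AMPD1. These values follow from the rule and carry no test. CPM is not divided by transcript length, so levels are compared between libraries and not between genes.

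Genes of photoreceptors stood on both sides of the limit at 24 hpf. Just inside the limit at 24 hpf were GNB3 (ENSDARG00000004358), six7 and si:ch211-229d2.5, each with a highest WIK value of 0.256 CPM. Just outside it was zgc:136930 at 0.317 CPM. Next were genes at 0.340 CPM, among them the photoreceptor genes gnb3b (transducin beta), ARR3 (ENSDARG00000056511, cone arrestin) and rbp3 (a retinoid-binding protein), and the liver gene fabp10a. Each gene named at 0.340 CPM was over the limit only in WIK replicate 1, the library that stood apart in that group. Its pairs had a chi-square per degree of freedom of 30.5 and 35.1, against 4.58 for the remaining pair. How many genes stood at 0.340 CPM was not counted. Just inside the limit at 72 hpf were ROM1 at 31.5 CPM and fgfbp2b at 33.5 CPM, and just outside it were LGSN at 29.9 CPM and cldn7a at 29.5 CPM.

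**Figure D1:**
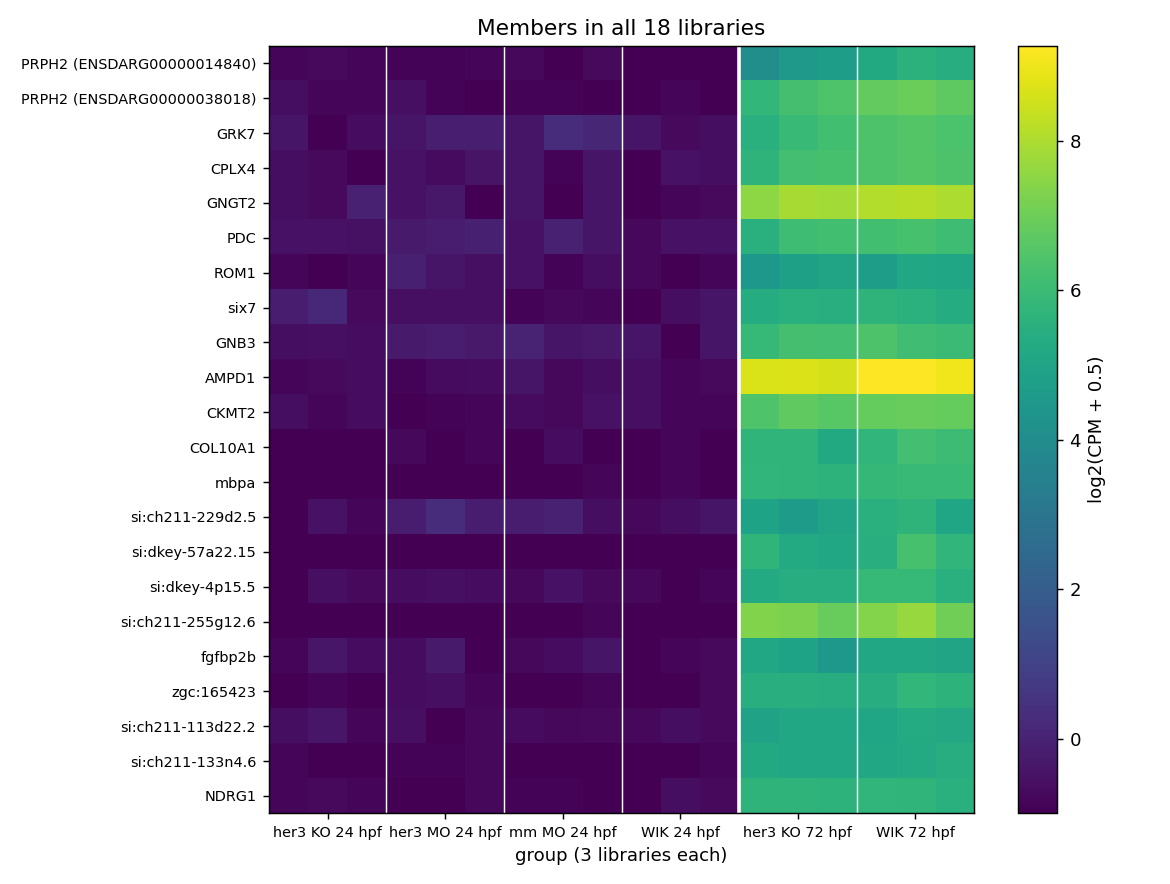
Expression of the 22 members (rows) in all 18 libraries (columns, 3 per group), as log2(CPM + 0.5) on a colour scale. All 12 libraries at 24 hpf are dark for every member, with a highest value of 0.75 CPM, and the 6 libraries at 72 hpf are bright.

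The same rise with age was present in the knockout, whose libraries played no part in choosing the members. All 22 members were higher at 72 than at 24 hpf in the knockout-labelled libraries (limma on log2(CPM + 0.5), Benjamini-Hochberg adjusted p at most 4.1e-13). The p-values are not free of the choice of members. The members had passed the filter on low values through their 72 hpf libraries alone, and the spread came from all 18 libraries, WIK included. The count was also 22 with no filter and with only the knockout groups fitted. Over all 20738 genes tested, 74.9% differed between these ages and 37.1% were higher at 72 hpf. On the log2(CPM + 0.5) scale the difference ran from 5.28 for PRPH2 (ENSDARG00000014840) to 9.41 for AMPD1, with a median of 6.46. With values near 0 at 24 hpf, its size depends on the amount added before the log. The median was 5.58 with 1 added and 8.26 with 0.1 added, so these differences do not rank the members by fold. For 4 members without a read at 24 hpf in the knockout a fold of plain CPM, with nothing added, is given as a lower bound. Taken over 3 reads in each library, it was at least 953-fold for si:ch211-255g12.6, 342-fold for mbpa, 315-fold for COL10A1 and 277-fold for si:dkey-57a22.15. These folds are not on the scale of the log2 differences. The knockout mean at 72 hpf was 30 CPM or more for 18 members and lower for 4: PRPH2 (ENSDARG00000014840) at 21.9, ROM1 at 27.1, si:ch211-229d2.5 at 28.9 and fgfbp2b at 29.3 CPM.

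At 72 hpf all 22 members had a lower estimate in the knockout than in WIK (21 under either other scaling, with NDRG1 changing sign). For most of them the difference did not pass the test in the main fit, which took its spread from all 18 libraries. A log2 difference is the knockout minus WIK on the log2(CPM + 0.5) scale, and a call is a Benjamini-Hochberg adjusted p under 0.05 over all genes tested. Of the 22, 3 were called lower (13.6%) and 0 higher: the outer segment genes PRPH2 (ENSDARG00000014840) and PRPH2 (ENSDARG00000038018), and the muscle enzyme gene AMPD1. Over all tested genes 10.8% were called and 5.71% were called lower. With only the groups compared fitted, 7 members were called lower and 0 higher. Of all genes tested, 3528 were then called, against 2245 in the main fit. The libraries of the younger age, where the members were near the limit of detection, entered the spread of the main fit. How much of that spread they set was not tested, so a miss in the main fit does not show equal levels at 72 hpf. The median log2 difference of the members was -0.25, with 22 of 22 below 0, against a median of -0.01 with 51.2% below 0 over all genes tested. Among the 5801 other genes with a WIK mean of at least 30 CPM at 72 hpf the median was 0.01, with 46.9% below 0 and 9.89% called. The knockout mean was 51.5% to 99.3% of the WIK mean. In bulk libraries of whole embryos, fewer cells of a type and less RNA per cell cannot be told apart.

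The rule asked for a minimum in WIK at 72 hpf, so the WIK side of this comparison was not independent of the choice of members. Applied to the knockout libraries in place of WIK, the same limits picked 25 genes, of which 16 were shared (72.7% of the 22 and 64.0% of the 25). Of the 25, 19 had a log2 difference below 0, with a median of -0.22, and 2 were called lower and 3 higher. The shares among all genes tested were 5.71% called lower and 10.8% called in all. Of the 9 picked by the knockout libraries alone, 3 were below 0, among them gnb3b at -0.43 ± 0.18 (SE). The 3 called higher were rlbp1b (a retinal-binding protein of the visual cycle) at 0.60 ± 0.16, eevs at 0.96 and si:dkey-31i7.2 at 1.19. Their WIK means at 72 hpf were 27.1, 17.7 and 14.6 CPM, under the minimum that their knockout means had to reach. Their direction was thus set by the choice, as the knockout side was not independent of it.

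**Figure D2:**
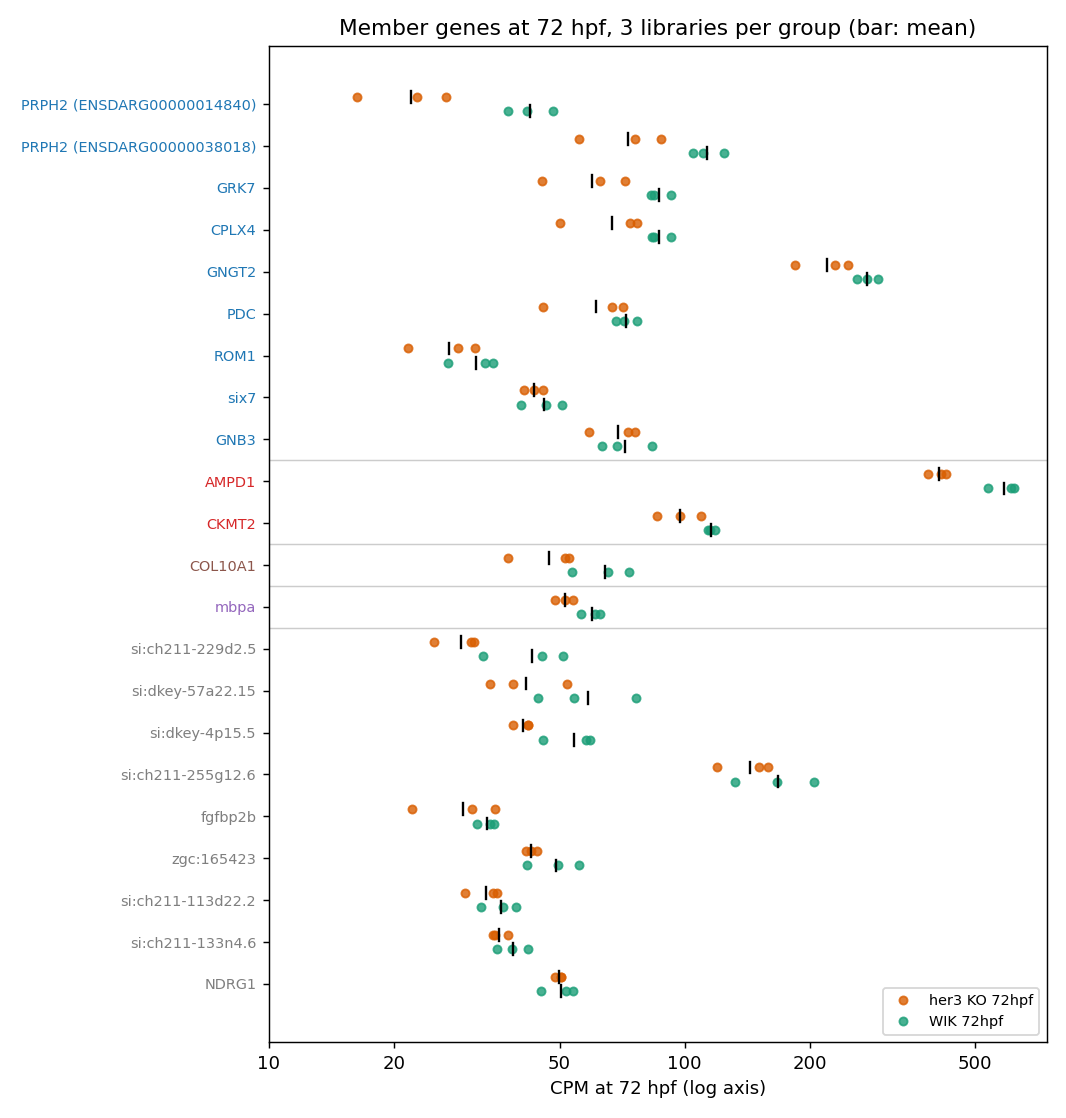
CPM of each member at 72 hpf on a log axis, with 1 point per library, 3 knockout and 3 WIK libraries per gene, and a bar at each mean; label colours mark photoreceptor (blue), muscle (red), cartilage and bone (brown), myelin (purple) and unplaced (grey) members. The knockout points lie wholly below the WIK points for 11 of the 22 members, including both PRPH2 genes and AMPD1.

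The 3 knockout values were all below the 3 WIK values for 11 of the 22 members, against 18.6% of all genes tested. They were 5 of 9 photoreceptor members, both muscle members, COL10A1, mbpa and 2 of the 9 unplaced members.

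The PRPH2 genes had the lowest knockout means relative to WIK, at 51.5% and 64.6%. PRPH2 encodes peripherin-2, a tetraspanin that shapes the disc rim, and 2 genes of the zebrafish table carry that symbol. PRPH2 (ENSDARG00000014840) had 16.3, 22.7 and 26.7 CPM in the knockout-labelled libraries, against 37.7, 48.1 and 41.7 CPM in WIK. The groups did not overlap, and the knockout mean was 51.5% of that of WIK. The log2 difference was -0.96 ± 0.16 (SE, n = 3 each, limma adjusted p = 0.00067), and it was called under all 15 other settings tried (-1.12 to -0.77, adjusted p 0.00020 to 0.027).

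PRPH2 (ENSDARG00000038018) had 55.8, 76.0 and 87.7 CPM in the knockout, against 111, 124 and 105 CPM in WIK. Every knockout library was again below every WIK library. The log2 difference was -0.65 ± 0.16 (limma adjusted p = 0.016). The call was lost without knockout replicate 1 (adjusted p = 0.087), without WIK replicate 2 (0.079) and with a pseudocount of 0.1 (0.27, the highest of 15 settings, against a lowest of 0.0020). The main fit took its spread from all 18 libraries. With only the groups compared fitted, this gene was called, with a standard error of 0.15 (limma adjusted p = 0.026). Why the pseudocount changed the call was not tested. Whether reads were shared between the PRPH2 genes cannot be read from the deposited values.

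ROM1 encodes the other rim tetraspanin, a partner of peripherin-2. It had 21.6, 28.5 and 31.3 CPM in the knockout and 26.9, 34.6 and 33.0 CPM in WIK, and the groups overlapped. Its log2 difference of -0.22 ± 0.17 did not pass (limma adjusted p = 0.49), and whether it differed from that of the PRPH2 genes was not tested.

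Of the phototransduction members, none passed the test. With so few genes, this does not set them apart from the 10.8% called over all genes tested. GNGT2 (ENSDARG00000103543), the gamma subunit of cone transducin, had 184, 247 and 229 CPM in the knockout, against 274, 291 and 260 CPM in WIK. The groups stood apart, with 1 knockout library well below the other two (log2 difference -0.33 ± 0.21, limma adjusted p = 0.40; 0.047 to 0.81 over 15 settings, with a call when only the groups compared were fitted). GNB3 (ENSDARG00000004358), named for the cone transducin beta subunit, had 58.8, 76.0 and 73.2 CPM in the knockout and 83.2, 68.8 and 63.3 CPM in WIK, and the groups overlapped. Its log2 difference was -0.05 ± 0.18, and the sign changed to 0.06 without knockout replicate 1 and without WIK replicate 1. The related gene gnb3b, no member, stood at 274 ± 60.8 CPM in the knockout and 363 ± 30.4 CPM in WIK (SD, n = 3). It did not pass (log2 difference -0.43 ± 0.18, limma adjusted p = 0.17).

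GRK7 (ENSDARG00000020602) encodes the kinase that turns off activated cone opsins. It had 45.3, 62.5 and 71.7 CPM in the knockout, against 84.2, 92.7 and 83.0 CPM in WIK, without overlap. The log2 difference of -0.55 ± 0.21 did not pass (limma adjusted p = 0.11), and it did pass when only the groups compared were fitted (0.041), with a pseudocount of 1 (0.034), with limma-voom (0.019) and without the 4 libraries that stood apart (0.026); the 15 settings gave 0.019 to 0.49. A second gene with that symbol that is no member, GRK7 (ENSDARG00000055534), stood at 5.04 ± 0.0286 CPM in the knockout, against 3.16 ± 0.304 CPM in WIK (SD, n = 3), and was called higher (log2 difference 0.60 ± 0.15, limma adjusted p = 0.013). PDC encodes phosducin, which binds the beta and gamma subunits of transducin. It had 45.6, 67.0 and 71.1 CPM in the knockout and 71.4, 76.8 and 68.2 CPM in WIK, with 1 knockout library inside the WIK range (log2 difference -0.26 ± 0.16, limma adjusted p = 0.39).

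The remaining photoreceptor members act at the synapse and in the nucleus. CPLX4 encodes a complexin of the photoreceptor ribbon synapse, where it acts on vesicle release. It had 50.2, 73.8 and 76.8 CPM in the knockout, against 84.4, 92.5 and 83.3 CPM in WIK, without overlap, but did not pass (log2 difference -0.39 ± 0.19, limma adjusted p = 0.23). The transcription factor gene six7, known in zebrafish for its role in cone opsin expression, had 41.1, 45.6 and 43.3 CPM in the knockout and 50.6, 46.5 and 40.4 CPM in WIK. These ranges overlapped, at a log2 difference of -0.07 ± 0.20 (limma adjusted p = 0.89).

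**Figure D3:**
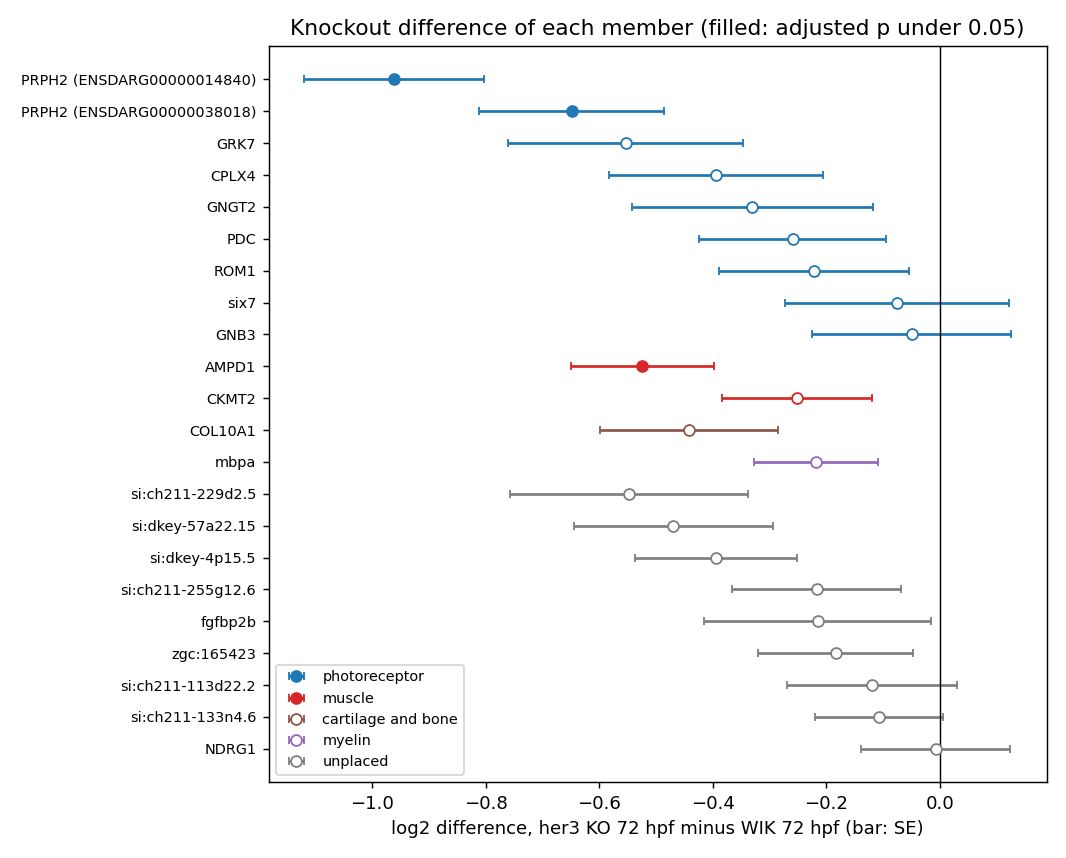
Log2 difference of each member at 72 hpf, knockout minus WIK, with its standard error as a bar and colour by tissue; filled points mark an adjusted p under 0.05. All 22 points lie left of 0 (21 under either other scaling), from -0.96 for PRPH2 (ENSDARG00000014840) to -0.01 for NDRG1, and 3 points are filled.

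Among the photoreceptor members, knockout replicate 1 was the lowest of the 3 knockout libraries in 9 of 9. This count depends on the placement: the 9 include PDC, placed by hand, and leave out NDRG1 (ENSDARG00000010420), which is on the photoreceptor and retina list. NDRG1 was lowest in knockout replicate 3, at 48.9 CPM, against 50.5 CPM in each of replicates 1 and 2. The median log2 distance of the 9 from their WIK mean was -0.65, -0.16 and -0.17 in knockout replicates 1, 2 and 3, and -0.03, 0.09 and -0.08 in the WIK libraries. Their summed level was 519, 699 and 711 CPM in the knockout and 823, 875 and 778 CPM in WIK, so that knockout replicate 1 was farthest from WIK and no knockout library reached the WIK range. For the 91 tested genes of the photoreceptor and retina list that are not members, the medians were -0.41, -0.13 and -0.05 in the knockout and -0.01, 0.06 and -0.05 in WIK. For all genes tested, the median was -0.01 in each knockout library. The part of this 1 library in the photoreceptor result was measured by leaving it out: PRPH2 (ENSDARG00000014840) then stood at -0.77 (limma adjusted p = 0.0029), and PRPH2 (ENSDARG00000038018) lost its call as given above.

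Most of the other 13 members were lowest in another knockout library. Knockout replicate 3, the one that stood apart over all genes, was lowest in 9 of the 13, replicate 1 in 3 and replicate 2 in 1. Their medians were -0.19, -0.14 and -0.36 in knockout replicates 1, 2 and 3, and -0.03, 0.12 and -0.07 in the WIK libraries. WIK replicate 2 had the highest median in both sets.

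**Figure D4:**
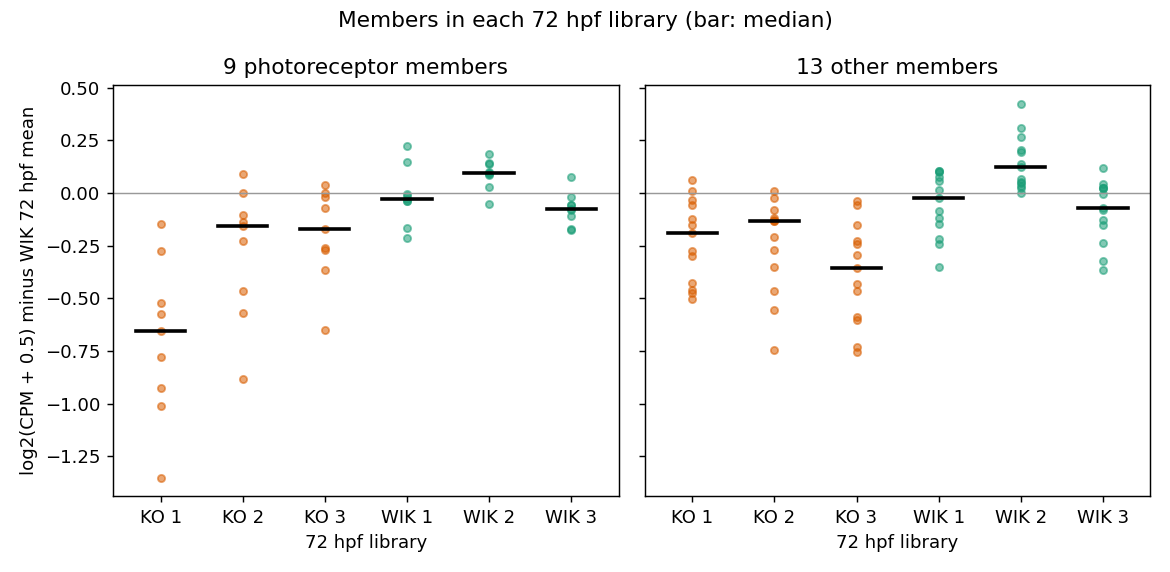
Distance of each member from its WIK mean at 72 hpf, as log2(CPM + 0.5), in the 3 knockout and 3 WIK libraries, for the 9 photoreceptor members and the 13 others, with a bar at the median of each library. Knockout replicate 1 has the lowest median among the photoreceptor members (-0.65) and knockout replicate 3 among the others (-0.36).

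The opsins and crystallins that met the limits but were left out also had lower estimates in the knockout. All 4 opsins were below 0 and 2 were called lower: opn1lw2 at -0.58 ± 0.14 (limma adjusted p = 0.013) and opn1mw1 at -0.73 ± 0.18 (limma adjusted p = 0.013). The 4 crystallins were all below 0 and none was called. The knockout values were all below the WIK values in 3 of the 4 opsins and 0 of the 4 crystallins. Over all genes tested this held for 18.6%. Over all genes tested, 5.71% were called lower. The opsins and crystallins met the same WIK minimum at 72 hpf as the members, so here too the WIK side was not independent of the choice of genes.

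Of the 100 tested genes on the photoreceptor and retina list, 9 were members: the photoreceptor members other than PDC, which was placed by hand, and NDRG1 (ENSDARG00000010420), which is also on the neuron and glia list and was left unplaced. Of the 37 list genes that averaged 30 CPM or more in WIK at 72 hpf, 28 were over the limit at 24 hpf and so no members. Over all genes tested, 5.71% were called lower and 10.8% were called in all. Of the 91 others on the list, 10 were called lower, 4 higher and 77 did not pass, with a median log2 difference of -0.22. Among the lower ones were grk1b, a kinase of opsins, at 21.9 ± 5.11 CPM in the knockout, against 36.7 ± 4.21 CPM in WIK, and RPE65 (ENSDARG00000094752), of the family of the visual cycle isomerase, at 7.94 ± 1.51 CPM, against 19.3 ± 5.87 CPM in WIK (SD, n = 3; log2 differences -0.75 ± 0.22 and -1.20 ± 0.16). RPE65 (ENSDARG00000094752) had up to 52.1 CPM in WIK at 24 hpf. The other RPE65 genes, RPE65 (ENSDARG00000007480) and RPE65 (ENSDARG00000054420), did not pass, at -0.12 ± 0.19 and -0.58 ± 0.23. The largest difference of the 91 was upward, in RDH8 (ENSDARG00000099217), at 3.89 ± 1.43 CPM in the knockout, against 0.941 ± 0.292 CPM in WIK (SD, n = 3). Its log2 difference was 1.57 ± 0.20 (SE, limma adjusted p = 5.7e-05), while RDH8 (ENSDARG00000105060) was called lower, at -0.76 ± 0.18. Of the genes named for CRX, a homeobox factor that activates photoreceptor genes, CRX (ENSDARG00000043483) was called higher, at 82.1 ± 7.33 CPM in the knockout, against 51.5 ± 5.72 CPM in WIK (SD, n = 3; log2 difference 0.67 ± 0.18, limma adjusted p = 0.026), while crx (ENSDARG00000011989) stood at 70.7 ± 4.57 CPM in the knockout and 71.3 ± 9.99 CPM in WIK and did not pass (SD, n = 3; log2 difference -0.0046 ± 0.20, limma adjusted p = 0.99).

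The muscle members are enzymes of energy metabolism. AMPD1, the AMP deaminase of skeletal muscle, had 414, 424 and 385 CPM in the knockout, against 618, 609 and 536 CPM in WIK. The groups did not overlap, the knockout mean was 69.4% of that of WIK, and the log2 difference was -0.52 ± 0.13 (limma adjusted p = 0.012). The call was lost without WIK replicate 1 (adjusted p = 0.059), without WIK replicate 2 (0.059), without knockout replicate 3 (0.058) and with a pseudocount of 0.1 (0.27), the highest of 15 settings, against a lowest of 0.00046. The log2 difference lay between -0.59 and -0.48 in all 15. The main fit took its spread from all 18 libraries. With only the groups compared fitted, AMPD1 was called, with a standard error of 0.072 (limma adjusted p = 0.00076). Why the pseudocount changed the call was not tested.

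CKMT2 (ENSDARG00000069615), the creatine kinase of muscle mitochondria, had 85.9, 109 and 97.6 CPM in the knockout, against 114, 118 and 115 CPM in WIK. The groups did not overlap, and the difference did not pass (log2 -0.25 ± 0.13, limma adjusted p = 0.28). Its gene of the same symbol, CKMT2 (ENSDARG00000039929), was over the limit at 24 hpf, and at 72 hpf it stood at 150 ± 31.2 CPM in the knockout and 190 ± 23.7 CPM in WIK (SD, n = 3; log2 difference -0.36 ± 0.28, limma adjusted p = 0.51). Of the other 66 tested genes on the list of muscle genes outside the sarcomere, 5 were called lower, 1 higher and 60 did not pass, with 56 below 0 and a median of -0.24. The one that was higher was mb, the oxygen-binding myoglobin (log2 difference 1.14 ± 0.18, limma adjusted p = 0.00054). Over all genes tested, 5.71% were called lower and 10.8% were called in all.

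COL10A1 (ENSDARG00000054753), a collagen of hypertrophic cartilage and, in zebrafish, of bone-forming cells, had 51.7, 52.6 and 37.6 CPM in the knockout, against 53.7, 73.4 and 65.5 CPM in WIK. The lowest WIK library lay just above the highest knockout library. The log2 difference was -0.44 ± 0.16 and did not pass (limma adjusted p = 0.089; 0.044 to 0.48 over 15 settings, with a call at a pseudocount of 1 and with limma-voom). Of the 49 other tested genes on the list of cartilage, bone and connective tissue, 4 were called lower, 0 higher and 45 did not pass (median -0.15). Over all genes tested, 5.71% were called lower and 10.8% were called in all.

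mbpa, one of the zebrafish genes for myelin basic protein, which compacts the myelin sheath, had 53.9, 51.7 and 48.8 CPM in the knockout, against 56.4, 62.6 and 60.8 CPM in WIK. The groups did not overlap, and the log2 difference of -0.22 ± 0.11 did not pass (limma adjusted p = 0.25). mbpb, the other gene of the pair, had over 100 CPM at 24 hpf in at least 1 WIK library and so was no member, and at 72 hpf stood at 146 ± 11.1 CPM in the knockout and 137 ± 2.43 CPM in WIK (SD, n = 3; log2 difference 0.08 ± 0.17, limma adjusted p = 0.84). Of the 84 other tested genes on the neuron and glia list, 2 were called lower, 1 higher and 81 did not pass (median 0.01). Over all genes tested, 5.71% were called lower and 10.8% were called in all.

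None of the 9 unplaced members passed the test. Over all genes tested 10.8% were called, so 0 of 9 does not set these members apart. si:ch211-255g12.6, which RefSeq (assembly GRCz12tu) lists as a long non-coding RNA, had 159, 151 and 119.4 CPM in the knockout and 167, 205 and 132 CPM in WIK, and the groups overlapped (log2 difference -0.22 ± 0.15, limma adjusted p = 0.44). si:dkey-57a22.15 had no read in any of the 12 libraries at 24 hpf. At 72 hpf it had 52.2, 38.6 and 34.1 CPM in the knockout and 44.5, 76.5 and 54.2 CPM in WIK, with overlap, and it passed only without knockout replicate 1 or WIK replicate 1 (adjusted p = 0.034 in both, 0.47 at most over 15 settings, and 0.11 with all libraries).

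si:dkey-4p15.5 and si:ch211-229d2.5 were the unplaced members whose groups did not overlap. They lie near each other in RefSeq GRCz12tu, with 3 protein-coding genes between them. si:dkey-4p15.5 had 38.6, 42.0 and 42.0 CPM in the knockout, against 57.8, 59.3 and 45.5 CPM in WIK (log2 difference -0.39 ± 0.14, limma adjusted p = 0.094). si:ch211-229d2.5 had 30.6, 25.0 and 31.2 CPM in the knockout, against 45.4, 50.9 and 32.7 CPM in WIK (log2 difference -0.55 ± 0.21, limma adjusted p = 0.12). Both passed with a pseudocount of 1, with limma-voom and when only the groups compared were fitted.

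NDRG1 (ENSDARG00000010420), of a gene family first described as downstream of N-myc, was the member closest to WIK. It had 50.5, 50.5 and 48.9 CPM in the knockout and 53.9, 51.9 and 45.1 CPM in WIK, with the knockout values inside the WIK range (log2 difference -0.01 ± 0.13, limma adjusted p = 0.99). This did not hold for a second gene with that symbol that is no member, NDRG1 (ENSDARG00000032849). Its mean at 72 hpf was 89.2 CPM in the knockout, against 118 CPM in WIK. That gene was called lower (log2 difference -0.41 ± 0.08, limma adjusted p = 0.0045). fgfbp2b, a gene for a binding protein of fibroblast growth factors, had 34.9, 30.8 and 22.1 CPM in the knockout and 34.8, 34.01 and 31.6 CPM in WIK, with overlap (log2 difference -0.22 ± 0.20, limma adjusted p = 0.60). zgc:165423, si:ch211-113d22.2 and si:ch211-133n4.6 had log2 differences of -0.18, -0.12 and -0.11, and their groups overlapped.

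At 24 hpf the members stayed low in the 9 libraries that the rule did not use. In 14 of the 22, all 9 values were under 0.3 CPM, and in 8 at least 1 value reached it. Those with a library at or over the limit were 2 in the knockout, 6 with the her3 morpholino and 4 with the mismatch morpholino. The highest values were 0.75 CPM for GRK7 in a mismatch morpholino library, 0.74 CPM for si:ch211-229d2.5 in a her3 morpholino library and 0.64 CPM for six7 in a knockout library. The members summed to 1.82 to 2.62 CPM in the knockout, 2.78 to 3.65 CPM with the her3 morpholino, 2.87 to 3.09 CPM with the mismatch morpholino and 1.27 to 2.098 CPM in WIK, where they had been chosen for low values.

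The members could not be compared between the groups at 24 hpf by this fit. They passed the filter on low values through their 72 hpf libraries alone, no value at 24 hpf was above 0.75 CPM, and the pseudocount of 0.5 flattens differences at that level. For completeness, limma called 0 of 22 between the her3 and the mismatch morpholino (0 at an unadjusted p under 0.05; 0 and 3 by limma-voom), where 3.35% of all genes were called, and 0 of 22 between the knockout and WIK (0 at an unadjusted p under 0.05; 0 and 0 by limma-voom), where 12.6% of all genes were called and the WIK values had chosen the members. These counts of 0 do not show that the members were alike in the groups. six7 had 0.350, 0.642 and 0.0934 CPM in the knockout at 24 hpf, against 0, 0.158 and 0.256 CPM in WIK, where it had been chosen for low values. With 3 reads worth 0.122 to 0.255 CPM, differences between the groups at 24 hpf were not detectable for most members at this depth.

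Of 17 tissue lists, 13 held no member, among them those for exocrine pancreas, liver, intestine, and skin and ionocytes. All 16 liver genes, all 4 intestine genes and all 44 skin and ionocyte genes that averaged at least 30 CPM in WIK at 72 hpf were over the limit at 24 hpf in at least 1 WIK library, as was the 1 such gene of the exocrine pancreas. The liver gene fabp10a was over it only in WIK replicate 1, at 0.340 CPM, against 0.0528 and 0.205 CPM in the other WIK libraries. Its WIK mean at 72 hpf was 31.9 CPM.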

How the data were processed

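The members and gene lists were chosen with earlier results of these data known. The authors deposited 1 table of CPM values for 25535 genes in 18 libraries, scaled to an effective library size (library sums 912145 to 1206849). The tools, per the submitters' processing notes, were featureCounts 2.0.2, HISAT2 2.2.1, edgeR 3.34.0 and SAMtools 1.10, with build danRer11. Settings for strand and multi-mapped reads were not given in the sources used here, and genes with close copies are uncertain. Divided by what 1 read is worth in its library, 100.0% of the values were whole to within 0.01 reads, which gave the read totals. No gene listed had under 15 reads over all libraries or reads in fewer than 3. Floors cover counting error only.

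From the deposited CPM, log2(CPM + 0.5) was computed, a scale that understates changes of low genes. Tested genes reached 1 CPM in 3 or more libraries (20738, with 4797 removed). All 22 members passed this filter, through their 72 hpf values. limma 3.58.1 in R 4.3.3 was fitted over all 18 libraries (1 coefficient per group, trend and robust moderation, 12 residual degrees of freedom). The fitting code was checked on simulated counts for the knockout and WIK at 72 hpf, with a fixed spread and no library standing apart. That check did not cover the fit over all 18 libraries. A planned count test was replaced by limma-voom on the recovered reads, chosen after seeing the data, as was leaving out the 4 libraries that stood apart. Alternatives were the pseudocount, the filter, 2 scalings, the replicate block, the groups fitted and each replicate left out.

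Named genes were the 3 with the highest WIK mean at 72 hpf in each tissue with at least 3 members, called members and those nearest a limit; further members are named to account for all of them. Symbols came from a table that named 23539 genes, and 3433 share a symbol, 8 members among them, which are given with their identifier where a second gene is discussed. The 17 tissue lists held 977 symbols, of which 845 were matched.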

Additional observations from a re-analysis of the deposited data

How the results depend on the processing

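The 22 members called higher with age in the knockout were 22 under every setting tried (with 14709 to 14928 of all genes called when single replicates were left out). Of members called lower in the knockout at 72 hpf there were 3, but 1 with a pseudocount of 0.1 and 7 with a pseudocount of 1, with limma-voom and with only the compared groups fitted; leaving out single replicates gave 1 (without WIK replicate 2) to 4. Genes called in that comparison numbered 2245, but 4645 without the 4 libraries that stood apart, 3528 with only the compared groups and 1418 to 1663 with a replicate left out. For the morpholinos 694 became 2678, 182 and 327 to 817 in the same settings, and rescaling to plain sums turned 301 higher and 393 lower into 409 and 353. For the knockout against WIK at 24 hpf 2620 became 906 with only the compared groups and 1523 to 3394 with a replicate left out, with 0 to 1 members called, which says nothing of the members, since the WIK values chose them and they held few reads. The number of members was 12 and 39 at limits of 0.15 and 0.6 CPM, 36 and 10 at minimums of 20 and 60 CPM, and 22 to 27 with a WIK replicate left out. At 72 hpf NDRG1 changed sign, to 0.018 for plain sums, 0.022 for median-ratio factors and 0.0087 without the 4 libraries (-0.082 to 0.045 with a replicate left out), as did GNB3 (-0.13 to 0.064 with a replicate left out). The cause of these shifts was not tested.

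With the replicate number as a block the members called were 3, 22, 0 and 0, and the genes called 2078, 15439, 611 and 2410, in the order used above with age second. Same-numbered libraries at 72 hpf correlated at 0.06 to 0.24, over 0.1 in 2 of 3 pairs, and 5 of 6 libraries correlated best with their own number, a hint from the data and not the design. The planned count test on edgeR's model was not run. Depth limits any statement at 24 hpf, where members held few reads.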

Other observations

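Genes as silent at 24 hpf but less strong at 72 hpf were compared between the knockout and WIK at 72 hpf. Of 184 genes with each WIK value under 0.3 CPM at 24 hpf and a WIK mean of 5 to 30 CPM at 72 hpf, 28 were called lower (15.2%) and 33 were called in all (17.9%), with a median log2 difference of -0.18 and 70.7% below 0. Over all genes tested 5.71% were called lower and 10.8% called in all, with a median of -0.01 and 51.2% below 0. They were chosen on the WIK values as the members were, but crystallins, opsins and sarcomere genes were not left out. The range was set after the data had been seen.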
